A study of Mus musculus with 2 samples.

Results

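The 7 genes described here belong to the MHC class II presentation pathway of the mouse: H2-Aa, H2-Ab1, H2-Eb1, H2-DMa, H2-DMb1, Cd74 and Ciita. They were chosen by name, as members of the pathway, and are 7 of the 31053 genes in the count tables. Transcripts were counted by their unique molecular identifiers (UMIs), and a level is the UMIs of a gene summed over the cells of a class and scaled to the UMIs of all genes in those cells (CPM, UMIs per 1000000 UMIs).

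The cells came from lungs of NG2tdT mice, which carry NG2-CreERTM and the Ai14 tdTomato reporter, so that tamoxifen turns on a red fluorescent protein in cells that use the promoter of NG2 (gene Cspg4, a pericyte proteoglycan) and in the descendants of those cells. The NG2tdT mice, which were male and 2 to 4 months old, received tamoxifen and rested for 7 days. The Hypoxia mice then breathed 10% oxygen for 21 days, whereas the Normoxia mice are labelled as non-treated, and whether they too had tamoxifen is not stated separately. There was 1 library per group, so no spread between animals could be measured, no test was made, and each difference is a difference between these 2 libraries. The labels speak of 3 replicates, but each group has 1 matrix, and whether animals were pooled in it is not stated. The labels describe a sort for tdTomato, yet Cspg4 had a UMI in 1 of 293 retained Normoxia cells and 2 of 453 retained Hypoxia cells, and most cells belonged to endothelial and immune classes. The study's results text describes lung cells from which CD45 and CD326 positive cells had been removed. It calls the hypoxic animals wild type where the labels say NG2tdT. Normoxic cells are named there only in published data that were combined with the study's own hypoxic cells. Whether the 2 libraries used here were made together is not stated. Immune cells were present in both libraries.

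MHC class II molecules are pairs of an alpha and a beta chain that hold peptides from engulfed proteins at the cell surface for CD4 T cells to inspect. Dendritic cells and B cells carry them constantly and macrophages to a varying degree, and capillary endothelium of the lung is known to carry them as well, at lower levels. The invariant chain Cd74 escorts new chain pairs and blocks their groove, the H2-DM heterodimer removes the last piece of Cd74 and edits the peptide, and the co-activator Ciita, whose transcript is induced by interferon gamma in cells outside the immune system, switches the whole set on together with factors bound to X and Y boxes in front of the genes. Mouse T cells do not make class II, so the UMIs found in T or NK cell-like cells are taken here as the background level.

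The retained cells had a median of 3135 UMIs in the Normoxia and 2818 in the Hypoxia library. They fell into 14 clusters, made without the 7 genes and named from markers that do not include them. B cell-like cells (cluster 7, 31 Normoxia and 55 Hypoxia cells) carried 11 of 11 B cell markers, and T or NK cell-like cells (cluster 4, 13 and 75 cells) carried 9 of 12 markers of their class. Endothelial cell-like cells came from cluster 2, led by Ntrk2 (41 and 125 cells), cluster 3, led by Plvap and Hey1 (34 and 51 cells), and cluster 10, led by the aerocyte genes Car4, Fibin and Ednrb (19 and 20 cells), each with 11 of 11 endothelial markers. Macrophage or monocyte-like cells came from cluster 8 with C1qa, C1qb and C1qc (19 and 10 cells), cluster 12, led by Ccl3, Plbd1 and Ifitm6 (9 and 21 cells), and cluster 14, led by Chil3, Ear2 and Ear1 (0 and 15 cells), so different clusters held most of this class in the 2 libraries. The libraries shared 1 barcode among the retained cells. All intervals are at 95% and hold only the error of counting, and a count of 0 is taken to allow 3 counts.

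The sum of the 7 genes separated the cell classes by orders of magnitude. In the Normoxia library macrophage or monocyte-like cells had 54989 CPM (Poisson interval 53669.6 to 56332), B cell-like cells 20490.4 (19764 to 21236), endothelial cell-like cells 1564 (1414 to 1726) and T or NK cell-like cells 117 (47.0 to 241). The Hypoxia library gave 29178 (28529 to 29838) in macrophage or monocyte-like, 29556.5 (28661 to 30473) in B cell-like, 11415 (11158 to 11677) in endothelial cell-like and 181 (133 to 242) in T or NK cell-like cells. The B cell-like and the macrophage or monocyte-like levels were thus apart in Normoxia and overlapped in their intervals in Hypoxia. Against T or NK cell-like cells of the same library, the endothelial cell-like level was 13.4-fold higher in Normoxia (interval 6.43 to 33.5) and 63.0-fold higher in Hypoxia (47.2 to 86.1). The Hypoxia fold depended on how the cells were classed. With classes taken from the markers of each cell (19 and 77 T or NK cell-like cells), T or NK cell-like cells had 110.0 CPM in Normoxia and 2179 in Hypoxia, beside 1276 and 10111 in endothelial cell-like cells. The endothelial cell-like class held 3.88% of all class II UMIs of the retained Normoxia cells and 38.1% of those of the retained Hypoxia cells.

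**Figure D1:**
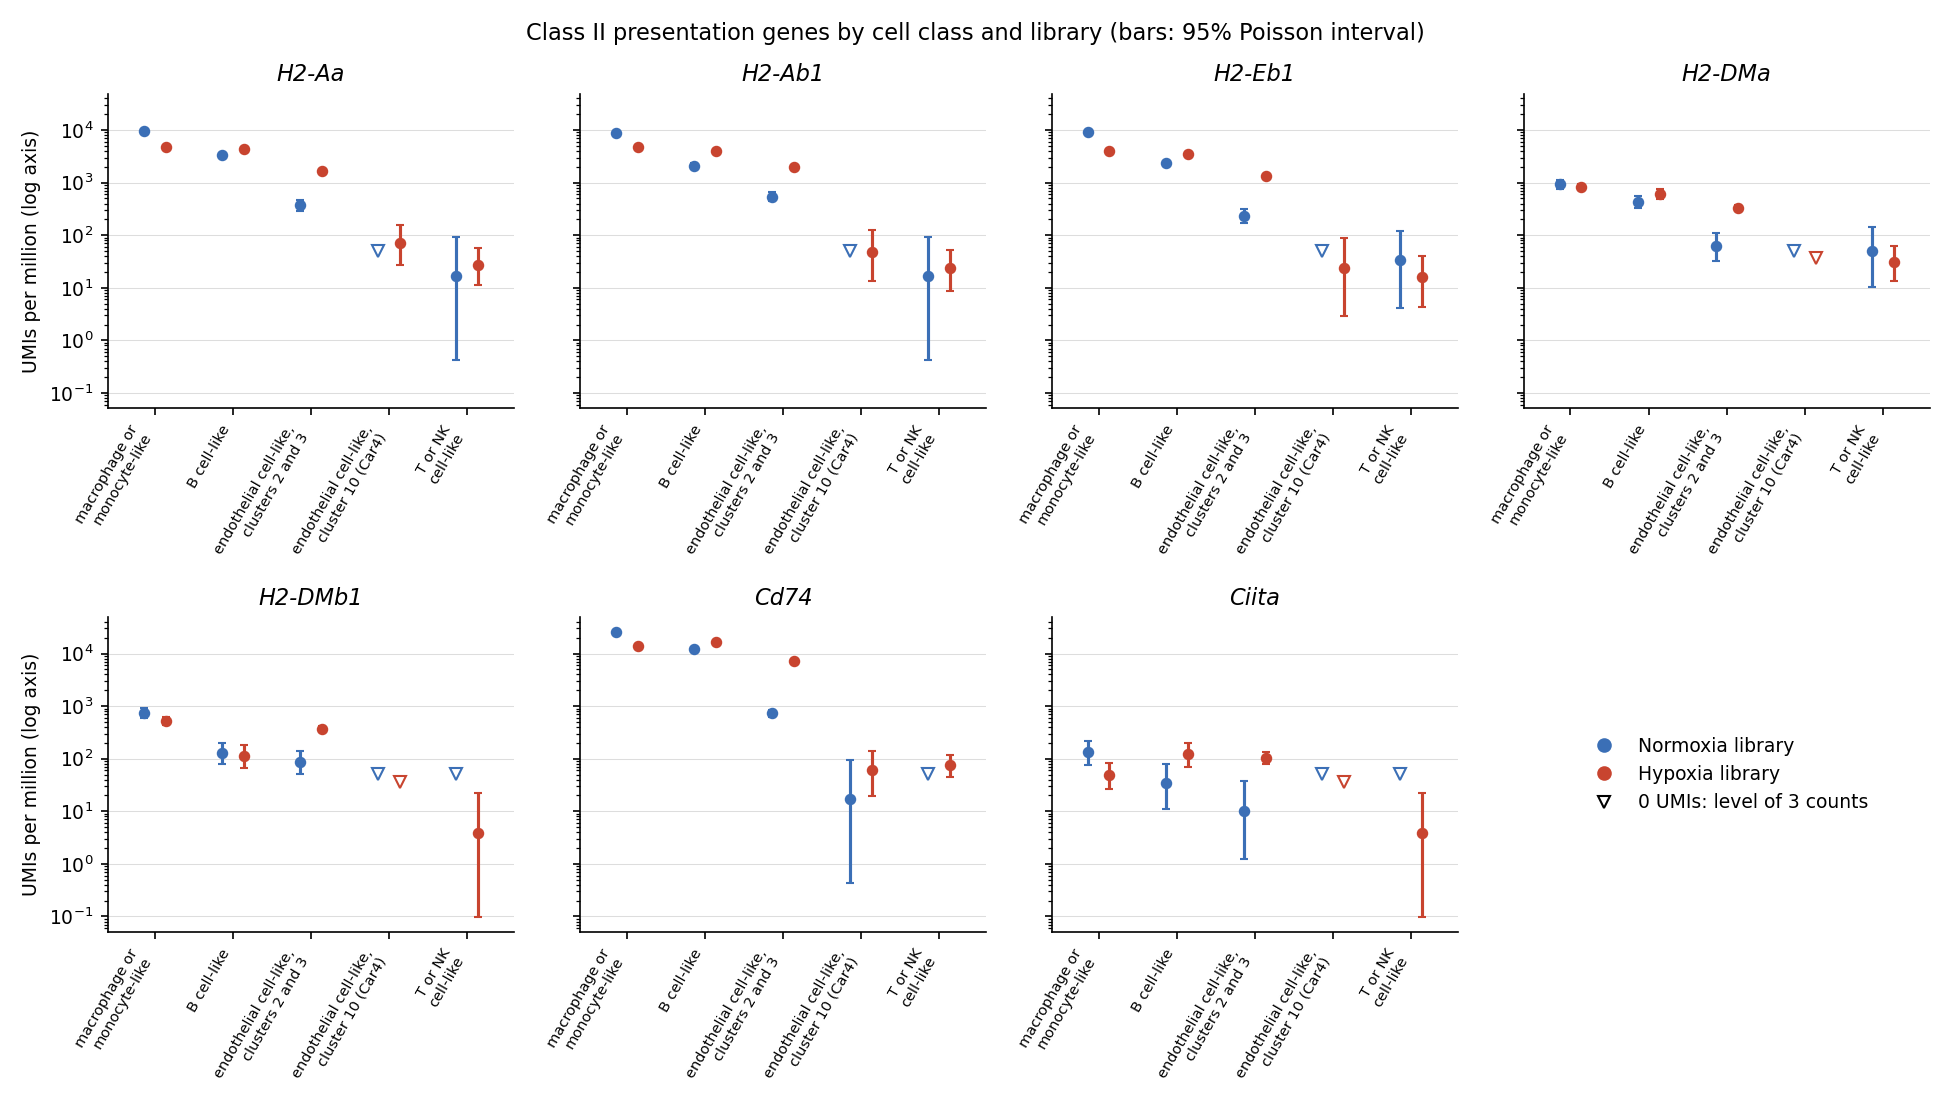
CPM of each of the 7 genes (log axis) in 5 groups of cells, Normoxia in blue and Hypoxia in red, with 95% Poisson intervals; open triangles mark groups with 0 UMIs, drawn at the level of 3 counts. In endothelial cell-like clusters 2 and 3 all 7 red points lie above the blue ones, and cluster 10 and the T or NK cell-like cells stay near the bottom of each panel.

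The classical alpha and beta chains lie together on chromosome 17 in the GRCm38 assembly. H2-Ab1 (34257689 to 34269419, plus strand) encodes the beta chain of the I-A molecule, H2-Aa (34282744 to 34287823, minus strand) its alpha chain, and H2-Eb1 (34305867 to 34316674, plus strand) the beta chain of I-E. In endothelial cell-like cells H2-Aa had 72 UMIs in Normoxia, 284 CPM (222 to 357), and 957 UMIs in Hypoxia, 1463 CPM (1372 to 1559). H2-Ab1 went from 414 (338 to 501) to 1725 (1625 to 1828) and H2-Eb1 from 181 (133 to 242) to 1148 (1068 to 1233). For each of the 3 chains the intervals of the libraries were far apart, and the log2 ratio of Hypoxia over Normoxia was 2.37 (2.02 to 2.73) for H2-Aa, 2.06 (1.77 to 2.36) for H2-Ab1 and 2.66 (2.23 to 3.13) for H2-Eb1. T or NK cell-like cells held 1 to 7 UMIs of each chain in either library, at most 33.4 CPM.

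In the immune classes the same chains differed less and in opposite directions. B cell-like cells had 3353 H2-Aa CPM in Normoxia (3063 to 3662) and 4289 in Hypoxia (3952 to 4647), with a log2 ratio of 0.36 (0.18 to 0.53). H2-Ab1 showed a larger difference there, from 2092 (1864 to 2340) to 3973 (3649 to 4318), a ratio of 0.93 (0.72 to 1.13), and H2-Eb1 went from 2358 to 3550.2 (0.59, 0.39 to 0.79). The B cell-like cells of the Hypoxia library were shallower, with a median of 1869 UMIs beside 4114, and the part of depth in this difference was not tested. Macrophage or monocyte-like cells had the highest levels of all classes in Normoxia, 9490.1 for H2-Aa, 8940 for H2-Ab1 and 9182 for H2-Eb1. Their Hypoxia levels were 4778, 4854 and 4082, with log2 ratios of -0.99 (-1.11 to -0.87), -0.88 (-0.999 to -0.76) and -1.17 (-1.29 to -1.05).

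The stretches just before the start of transcription are shown because class II genes are read through short boxes there, and because H2-Aa and H2-Eb1 were both higher in Hypoxia endothelial cell-like cells. RefSeq windows on GRCm38.p6 were found for 4 of the 7 genes (H2-Aa, H2-Eb1, H2-DMa and H2-DMb1). Capitals mark the Y box TGATTGG and, where it begins 25 to 35 bases upstream on the same strand, the X box core GCAAC. The match is a description of letters, not of a working site. Each line holds the 150 bases before the start, 5′ to 3′ on the strand of the gene, from chr17:34287824-34287973 (minus strand) for H2-Aa, chr17:34305717-34305866 (plus) for H2-Eb1, chr17:34153041-34153190 (plus) for H2-DMb1 and chr17:34092229-34092378 (plus) for H2-Oa, which is not among the 7 genes and is given for comparison.
H2-Aa: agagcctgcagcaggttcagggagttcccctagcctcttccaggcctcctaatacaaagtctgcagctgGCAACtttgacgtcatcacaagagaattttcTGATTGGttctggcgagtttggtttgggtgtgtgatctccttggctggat
H2-Eb1: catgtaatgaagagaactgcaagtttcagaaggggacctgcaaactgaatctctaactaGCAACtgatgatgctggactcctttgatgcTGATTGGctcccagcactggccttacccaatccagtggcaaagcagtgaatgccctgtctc
H2-DMb1: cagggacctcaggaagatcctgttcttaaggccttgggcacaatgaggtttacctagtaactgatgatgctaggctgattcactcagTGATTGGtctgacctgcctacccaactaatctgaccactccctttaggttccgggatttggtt
H2-Oa: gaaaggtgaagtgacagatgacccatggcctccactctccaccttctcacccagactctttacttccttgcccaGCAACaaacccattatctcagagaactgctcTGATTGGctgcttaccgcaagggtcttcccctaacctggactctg
TGATTGG began at position -50 in H2-Aa, -61 in H2-Eb1, -63 in H2-DMb1 and -45 in H2-Oa, counted from the RefSeq start site. That start matched the gene span for H2-Aa and H2-Eb1. For H2-DMb1 (span from 34153072) and H2-Oa (span from 34092340) it lay inside the span, so part of the stretch shown does too. GCAAC lay 31 bases further upstream in H2-Aa, 30 in H2-Eb1 and 31 in H2-Oa and was not found at that spacing in H2-DMb1. Over all 32851 windows of 300 bases, searched on both strands, TGATTGG was present in 7.82% and the spaced pair in 34 windows (0.103%). The 2 windows of H2-DMa held no TGATTGG. Both (34122582 to 34122881 and 34125268 to 34125567) lay inside the span given below for this gene. The bases before that span were not covered, so no statement on a Y box there can be made. H2-Oa, the alpha chain of the editor's inhibitor, carried the spaced pair and had 0 UMIs in Normoxia and 3 in Hypoxia endothelial cell-like cells. H2-Ob, also outside the 7 genes, carried the pair too, with TGATTGG at -59 and GCAAC 28 bases further upstream. H2-DMb2 held TGATTGG at -92 without GCAAC at that spacing. The UMIs of both are given below with the other class II chains.

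The peptide editors H2-DMa (chromosome 17, 34119541 to 34139101) and H2-DMb1 (34153072 to 34160230) form the H2-DM heterodimer. H2-DMa rested on 12 Normoxia and 190 Hypoxia UMIs in endothelial cell-like cells, 47.3 CPM (24.4 to 82.6) and 291 (251 to 335). H2-DMb1 had 17 and 210 UMIs, 67.0 CPM (39.0 to 107) and 321 (279 to 368). The log2 ratios were 2.62 (1.78 to 3.60) for H2-DMa and 2.26 (1.55 to 3.07) for H2-DMb1, close in size to those of the chains. H2-DMa in Normoxia endothelial cell-like cells lay within the interval of T or NK cell-like cells (50.1 CPM, 10.3 to 146, from 3 UMIs), so at this depth it was not above background there, whereas the Hypoxia level was above that of T or NK cell-like cells (31.5, 13.6 to 62.1). H2-DMb1 had 0 UMIs in Normoxia T or NK cell-like cells, which allows up to 50.1 CPM, a level inside the Normoxia interval of endothelial cell-like cells. The ratios of both editors thus start from levels not told apart from background. In B cell-like cells H2-DMa had 436 CPM in Normoxia and 609.6 in Hypoxia, and in macrophage or monocyte-like cells 934 and 817. The intervals of both ratios held 0, at 0.48 (-0.00 to 0.97) and -0.19 (-0.53 to 0.15). H2-DMb1 had 129 and 115 in B cell-like cells (-0.17, -1.23 to 0.86) and 742 and 517 in macrophage or monocyte-like cells (-0.52, -0.92 to -0.12).

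H2-DMb1 has a near-identical neighbour, H2-DMb2, and reads that fit both may have been dropped or split, so their absolute levels are uncertain. The split between them nevertheless differed by class in the same way in both libraries. Of the UMIs given to either gene, H2-DMb1 took 16.5% (exact binomial interval 10.3 to 24.6%, of 115) in Normoxia and 10.6% (6.18 to 16.6%, of 151) in Hypoxia B cell-like cells. It took 86.4% (78.2 to 92.4%) and 86.1% (79.7 to 91.1%) in macrophage or monocyte-like cells, and 17 of 17 and 210 of 213 UMIs in endothelial cell-like cells. H2-DMb2 thus received most of these UMIs in B cell-like cells and few or none in endothelial cell-like cells.

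Cd74 (chromosome 18, 60803848 to 60812652), the invariant chain, gave the most UMIs of the 7 genes and had the largest well-counted difference in endothelial cell-like cells. It had 143 UMIs there in Normoxia, 563 CPM (475 to 664), and 4171 in Hypoxia, 6377 CPM (6185 to 6574), a log2 ratio of 3.50 (3.26 to 3.75) and an 11.3-fold difference (9.58 to 13.5). This interval did not overlap those of H2-Aa, H2-Ab1 and H2-Eb1, and Cd74 made up 36.0% (31.3 to 41.0%) of the endothelial class II UMIs in Normoxia and 55.9% (54.7 to 57.0%) in Hypoxia. H2-Ab1 took 26.4% (22.2 to 31.1%) and 15.1% (14.3 to 15.9%). The make-up in B cell-like cells moved less, with Cd74 at 59.0% (57.2 to 60.8%) and 57.2% (55.6 to 58.7%), and in macrophage or monocyte-like cells it was 46.5% (45.3 to 47.7%) and 48.3% (47.1 to 49.4%).

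**Figure D2:**
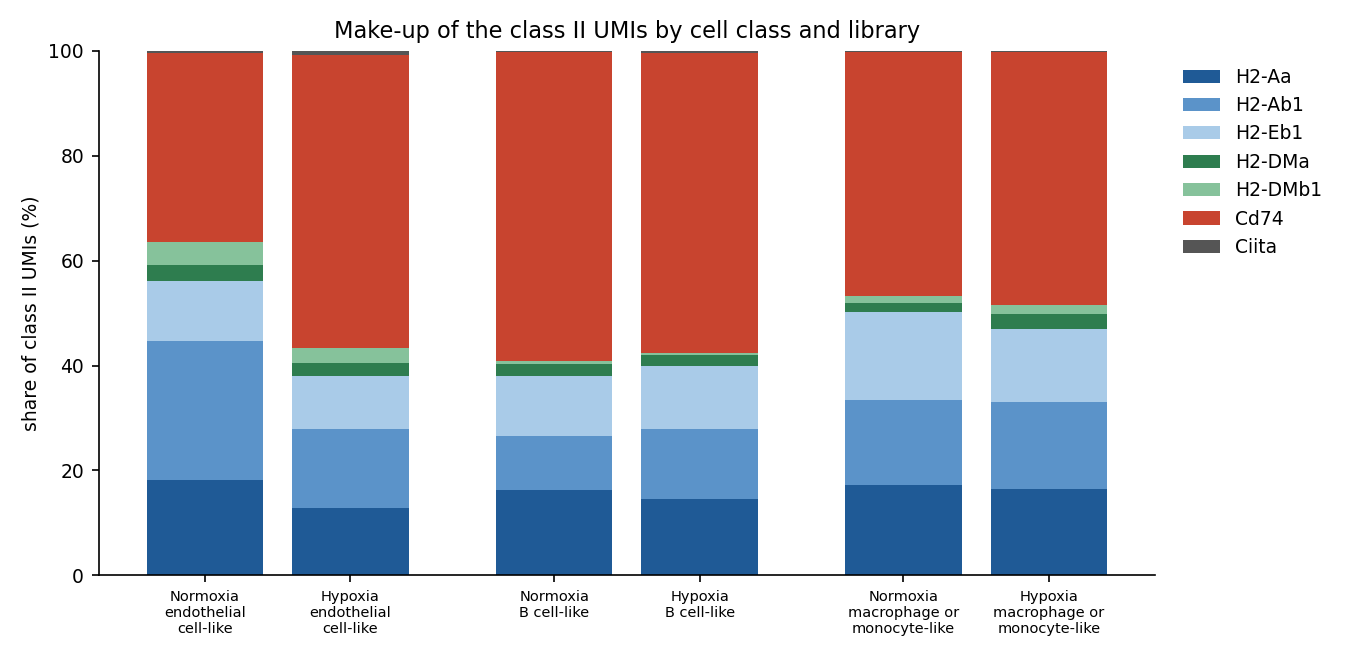
Share of each of the 7 genes in the class II UMIs of a class (stacked bars, %), for 3 classes in the Normoxia and Hypoxia libraries. The Cd74 part of the endothelial cell-like bar is 36.0% in Normoxia and 55.9% in Hypoxia, and the bars of the B cell-like and macrophage or monocyte-like cells look alike between libraries.

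B cell-like cells had 12088 Cd74 CPM in Normoxia (11532 to 12664) and 16898 in Hypoxia (16222 to 17594), and macrophage or monocyte-like cells 25568 (24671 to 26489.5) and 14082 (13632 to 14543). T or NK cell-like cells had 0 Cd74 UMIs of 59856 in Normoxia, which allows up to 50.1 CPM, and 19 in Hypoxia, 74.9 CPM (45.1 to 117). In both libraries endothelial cell-like cells therefore sat between the presenting immune classes and the background for Cd74.

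Ciita (chromosome 16, 10480059 to 10528418), the co-activator of the set, was sparse everywhere. Endothelial cell-like cells had 2 UMIs in 2 of 94 Normoxia cells and 59 UMIs in 42 of 196 Hypoxia cells, 7.88 CPM (0.954 to 28.5) and 90.2 (68.7 to 116), for a log2 ratio of 3.52 (1.60 to 6.60). B cell-like cells had 5 and 17 UMIs, 34.1 (11.1 to 79.5) and 122 (71.0 to 195) CPM, and macrophage or monocyte-like cells 16 and 13 UMIs, 133 (76.3 to 217) and 49.4 (26.3 to 84.5). T or NK cell-like cells had 0 UMIs in Normoxia and 1 in Hypoxia. The Normoxia level of endothelial cell-like cells was thus under the 50.1 CPM that 0 UMIs allow in T or NK cell-like cells, and its ratio starts from a level not told apart from background. The Hypoxia levels of endothelial and B cell-like cells were not distinguishable, their intervals overlapping.

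The 7 genes were set against all other genes of each class. All 7 had at least 20 UMIs over both libraries in each of the 3 classes, the minimum used here. In endothelial cell-like cells all 7 were at least 2-fold higher in Hypoxia, where 6.1% of 6128 genes with as many UMIs were, and 0 were at least 2-fold lower, where 4.49% were. Their median log2 ratio was 2.62, beside -0.01 over all those genes. H2-DMa, H2-DMb1 and Ciita, with 12, 17 and 2 Normoxia UMIs, reached the minimum through the Hypoxia library. Their calls and their part in the median start from levels not told apart from background. H2-Aa, H2-Ab1, H2-Eb1 and Cd74 had 72, 105, 46 and 143 Normoxia UMIs. In B cell-like cells 1 of 7 (Ciita) was at least 2-fold higher, beside 12.5% of 1449 genes, and 0 were at least 2-fold lower, beside 5.59%, so the count there was near the background. Macrophage or monocyte-like cells had 2 of 7 (H2-Eb1 and Ciita) at least 2-fold lower, beside 6.64% of 2409 genes, and 0 at least 2-fold higher, beside 13.3%. The H2-Eb1 call did not hold without cluster 14 (log2 ratio -0.74, -0.86 to -0.61) or in cluster 8 alone (-0.19, -0.36 to -0.03). Ciita was at -1.003 without cluster 14, with an interval that held 0 (-2.21 to 0.17), and at -2.91 in cluster 8 alone (-8.37 to -0.06). The median of the 7 was 0.48 in B cell-like cells (0.17 over all genes) and -0.88 in macrophage or monocyte-like cells (0.13 over all genes).

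**Figure D3:**
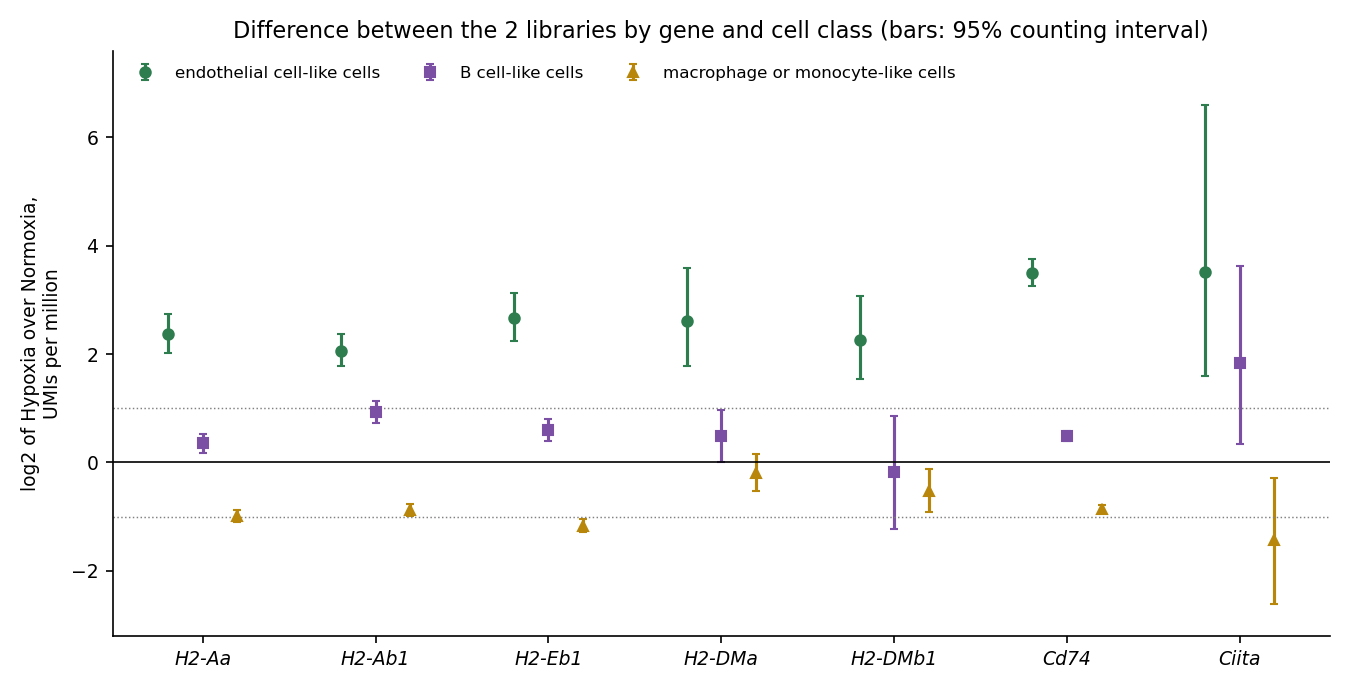
Log2 ratio of Hypoxia over Normoxia (CPM) for each gene in endothelial cell-like (circles), B cell-like (squares) and macrophage or monocyte-like cells (triangles), with 95% counting intervals and dotted lines at a 2-fold difference. The 7 endothelial points run from 2.06 to 3.52, and for each gene the endothelial point is the highest of its 3 points. Ciita has the widest intervals.

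Within the endothelial cell-like class nearly all class II UMIs lay in clusters 2 and 3 and few in cluster 10. The sum was 2245 CPM in Normoxia and 13335 in Hypoxia in cluster 2, and 1791 and 12194 in cluster 3. In the Car4 cluster it was 16.8 (0.426 to 93.8, 1 UMI) and 206 (120 to 330, 17 UMIs), and the Hypoxia value was 1.14-fold that of T or NK cell-like cells (0.611 to 2.02). H2-DMa, H2-DMb1 and Ciita had 0 UMIs in the Car4 cells of either library, which allows up to 50.5 CPM in Normoxia and 36.4 in Hypoxia. The cells of this cluster, led by genes known from aerocytes (the large gas-exchange cells of lung capillaries), were thus not distinguishable from the T or NK cell-like background of the same library in the sum. Between libraries their level was still 12.2-fold higher in Hypoxia (1.92 to 511), from the few UMIs given above. This fold was 1.55 (0.695 to 4.07) in T or NK cell-like cells. In unnamed clusters it was 8.43 (1.13 to 62.97) in cluster 6, from 3 UMIs in each library, and 0.662 (0.0725 to 2.92) in cluster 1. Whether low levels differed between libraries in general was not tested. When cells were instead picked 1 by 1 for more aerocyte than general capillary markers, 23 Hypoxia cells had 3230.0 CPM, of which 1 cell held 91.5%.

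The difference between libraries did not rest on a few cells. In clusters 2 and 3 together, the middle cell had 8.33 class II UMIs per 10000 in Normoxia, with an upper quartile of 31.5 and a highest cell at 184, and the middle Hypoxia cell had 136, with a lower quartile of 84.6 and a highest cell at 349.9. Of 176 Hypoxia cells, 160 (90.9%) lay above the Normoxia upper quartile and 47 above the highest Normoxia cell, whereas 2 of 75 Normoxia cells lay above the Hypoxia median. The groups therefore overlapped but were shifted as a whole. The single cell with most class II UMIs held 8.08% of the sum in Normoxia and 4.497% in Hypoxia.

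**Figure D4:**
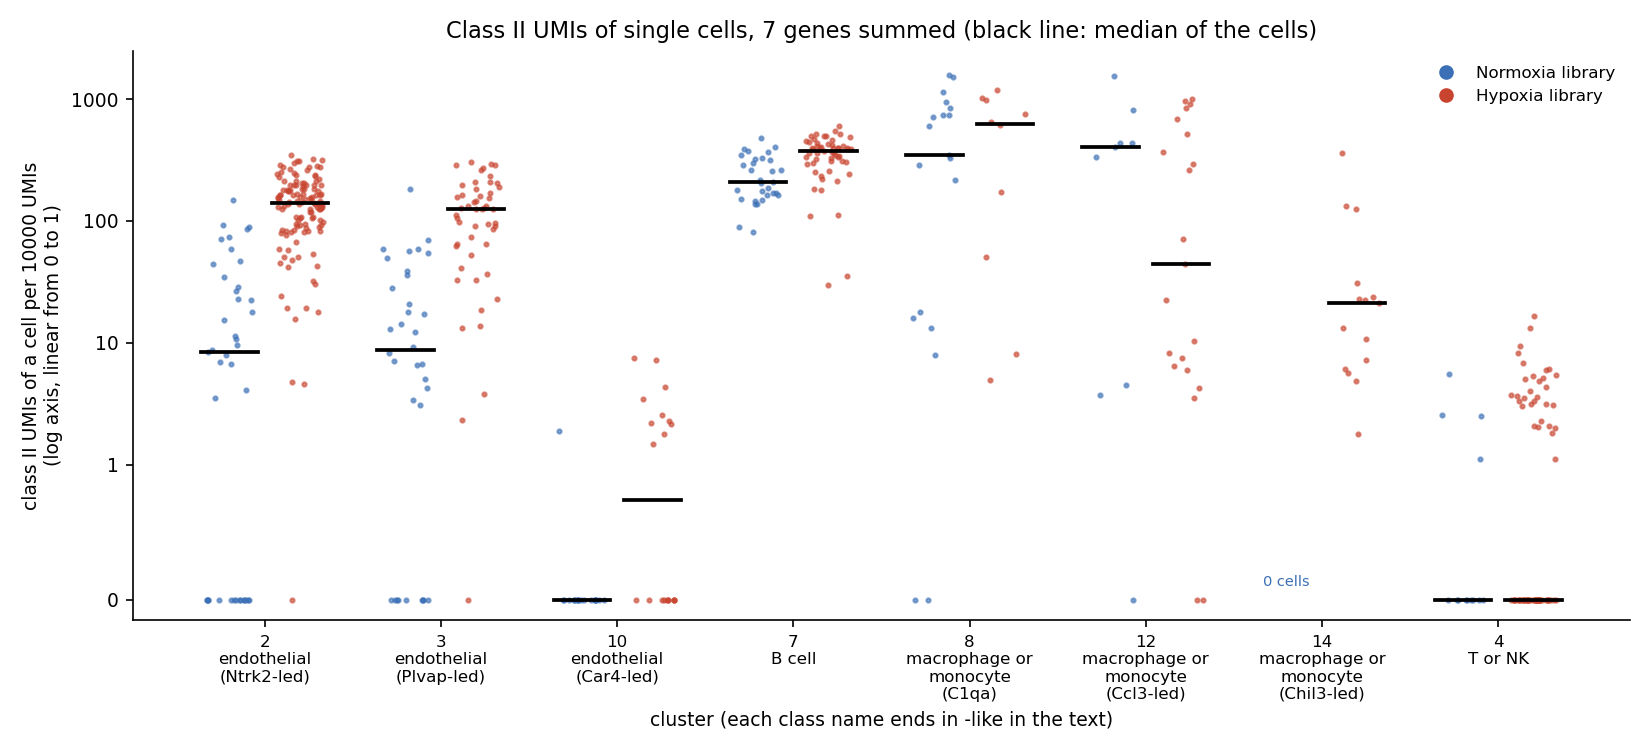
Class II UMIs per 10000 UMIs of each cell (log axis, linear below 1) by cluster, Normoxia in blue and Hypoxia in red, with the median as a black line. Clusters 2 and 3 shift upward as a whole between the libraries, cluster 10 and cluster 4 stay near 0, and clusters 8 and 12 hold cells over 100 and cells under 30.

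Cells differ in depth, so each cell was thinned to 1000 UMIs before counting in which cells a gene was found. In clusters 2 and 3, Cd74 was then found in 29.6% of Normoxia cells (19.3 to 41.6%, 21 of 71) and 93.5% of Hypoxia cells (88.7 to 96.7%, 158 of 169), against 42.7% and 95.5% without thinning, and 4 and 7 shallower cells were left out. H2-Aa was found in 28.2% (18.1 to 40.1%) and 78.1% (71.1 to 84.1%), and Ciita in 2.82% (0.343 to 9.81%) and 12.4% (7.86 to 18.4%). The median number of the 7 genes found in a cell was 1 in Normoxia and 4 in Hypoxia. T or NK cell-like cells gave Cd74 in 0 of 13 and 1 of 75 cells after thinning (0% and 20% without), with median depths of 3866 and 3132 UMIs beside 2357 and 2646 in clusters 2 and 3. At least 3 of the 7 genes were found together in 15.5% (7.996 to 26.0%) of the Normoxia cells in clusters 2 and 3, in 87.0% (81.0 to 91.7%) of the Hypoxia cells there, and in 0 T or NK cell-like cells of either library (38.7%, 92.0%, 1 of 13 and 0 of 75 without thinning).

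**Figure D5:**
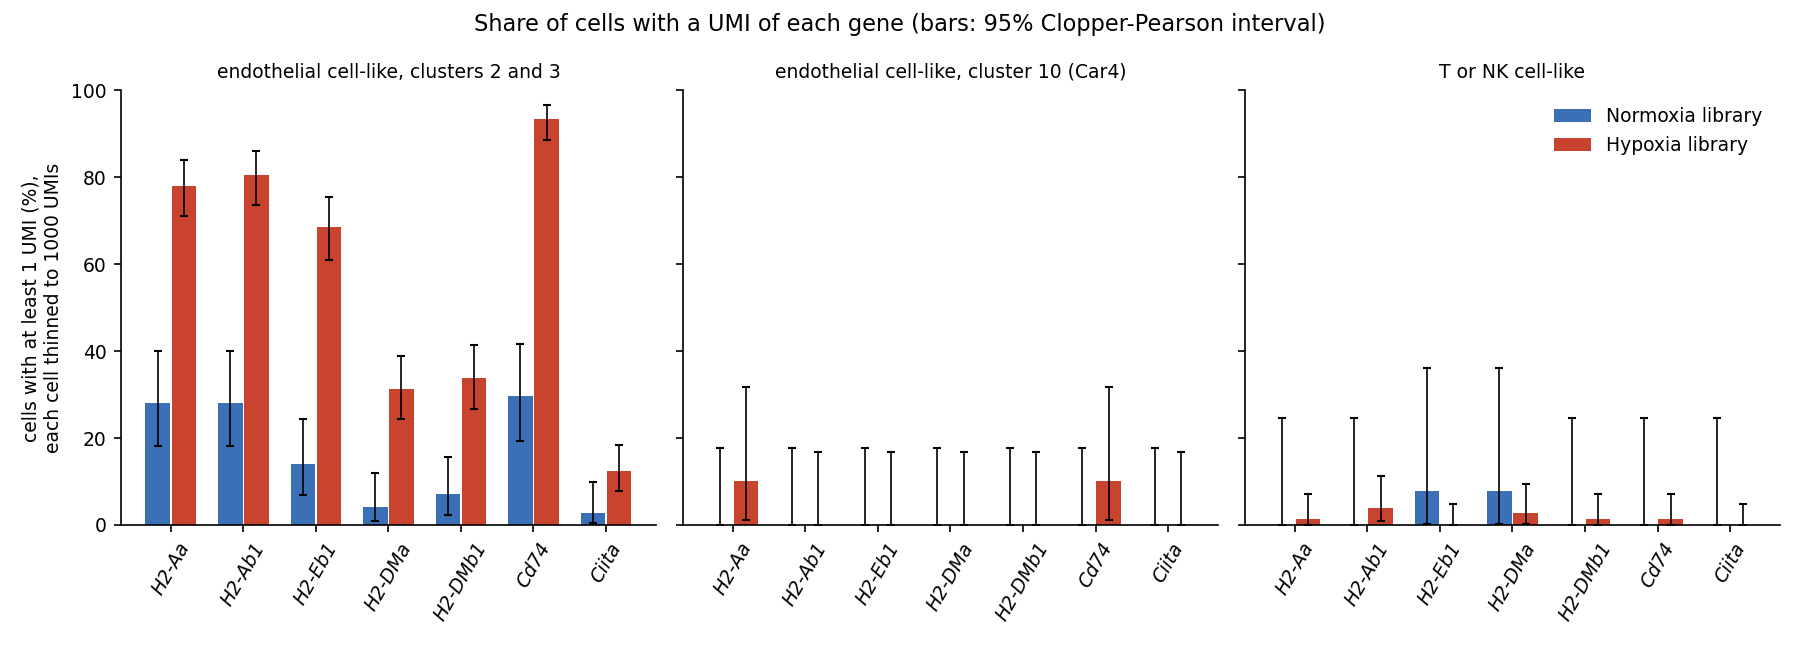
Share of cells (%, bars from 0) with at least 1 UMI of each gene after thinning to 1000 UMIs, in endothelial cell-like clusters 2 and 3, the Car4 cluster 10 and T or NK cell-like cells, with 95% Clopper-Pearson intervals. In clusters 2 and 3 the Hypoxia bar is the taller of each pair, and the other 2 panels hold bars of at most 10% in which the intervals are wide.

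Transcripts of immune cells were measured in the same endothelial cell-like cells. T or NK cell markers had 0 UMIs in Normoxia and 5 in Hypoxia (12 genes), B cell markers 16 and 42 UMIs (11 genes, 63.0 and 64.2 CPM, Ms4a1 and Pax5 at 0 in both libraries), macrophage or monocyte markers 11 and 53 (15 genes, 43.3 and 81.0 CPM, Csf1r, Mrc1 and Fcgr1 at 0), and dendritic cell markers 16 and 36 (10 genes, 63.0 and 55.04 CPM, Flt3, Itgax, Cd209a, Xcr1 and Clec9a at 0). The immunoglobulin light chain Igkc had 3 and 70 UMIs (11.8 and 107 CPM), 26 of the 70 in 1 cell. The lysosomal protease Ctss, which accompanies class II in presenting cells, had 83.2 UMIs per 1000 class II UMIs in Hypoxia macrophage or monocyte-like cells, 16.3 in B cell-like and 0.804 in endothelial cell-like cells. In Normoxia these were 31.7 (27.5 to 36.3) and 16.6, and 0 Ctss UMIs beside 397 class II UMIs in endothelial cell-like cells, with an interval up to 9.29. Without the cells that held a UMI of these immune markers or Igkc, 63 Normoxia and 98 Hypoxia endothelial cell-like cells were left, and the log2 ratio of the sum was 2.90 (2.72 to 3.09), beside 2.87 (2.72 to 3.02) with all cells. The summed endothelial markers were 25564 CPM in Normoxia and 19176 in Hypoxia, and the part of this in the class II difference was not tested.

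Ntrk2, the leading gene of cluster 2 and a neurotrophin receptor gene, was detected in clusters 2 and 3 in 10 of the 75 cells in Normoxia and 128 of the 176 in Hypoxia. Class II went from 1843 to 13115 CPM in cells without a Ntrk2 UMI and from 3310 to 13015 in cells with it. The Normoxia intervals with and without Ntrk2 lay apart (2644 to 4093 and 1644 to 2060). The former rests on 85 UMIs, of which 3 cells held 69.4%, so this separation comes from few cells. A class II UMI was found in 6 of the 10 Normoxia cells with Ntrk2 (60%) and 45 of the 65 without (69.2%). The Hypoxia levels with and without Ntrk2 had overlapping intervals (12689.6 to 13347 and 12435 to 13824).

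In macrophage or monocyte-like cells the log2 ratio of the sum was -0.91 (-0.96 to -0.87), and -0.48 (-0.53 to -0.43) without cluster 14. The difference between libraries varied by cluster. Cluster 8, with the complement genes, had 53718 class II CPM in Normoxia (52105 to 55369) and 50922 in Hypoxia (49206 to 52683), a log2 ratio of -0.08 (-0.14 to -0.01). Cluster 12 had 57363 (55090 to 59706) and 32859 (31819 to 33924), a ratio of -0.80 (-0.88 to -0.73), and the Chil3 cells of cluster 14, found in Hypoxia alone, had 6958 (6402 to 7550). Few cells carried some of these levels, which the counting intervals do not hold. Of the class II UMIs, 1 cell held 42.6% and 3 cells 73.7% in the 9 Normoxia cells of cluster 12. In the 10 Hypoxia cells of cluster 8 these shares were 27.1% and 57.5%, and in cluster 14 1 cell held 58.6%. Most single cells were either rich or poor in class II. Over 100 class II UMIs per 10000 were found in cluster 8 in 13 of 19 cells (Normoxia) and 7 of 10 (Hypoxia), and 6 and 2 had under 30, and in cluster 12 the counts over 100 were 6 of 9 and 9 of 21. Cluster 14 had 3 of 15 cells over 100 and 11 under 30. Cells with a dendritic cell marker other than Itgax (8 and 11 cells) had 63862 and 47431 CPM, and those without (20 and 35 cells) 50231 and 20485. The lower Hypoxia level was present in both, and the part of the changed cluster make-up in it was not tested.

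In the fibroblast-like class most class II UMIs of the Hypoxia library came from a single cell. Fibroblast-like cells had 67.6 CPM in Normoxia (37.9 to 112) and 2467 in Hypoxia (2165 to 2800), but 1 Hypoxia cell of 21 held 193 of the 240 UMIs. That cell also had UMIs of 7 dendritic cell markers and of the fibroblast genes Col1a1 and Inmt, and without it the level was 529 (389 to 704). Of the 47 UMIs that then remained, 34 lay in 1 other cell. Neutrophil-like cells had 0 UMIs of 2580 in Normoxia, too few to set a level, and 11 in Hypoxia.

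Other genes of the pathway were taken from 6 lists with 44 genes. In endothelial cell-like cells 19 of them had at least 20 UMIs, and 2 of the 19 were at least 2-fold higher in Hypoxia (beside 6.1% of all genes) and 0 at least 2-fold lower (beside 4.49%). Their median log2 ratio was -0.32, beside -0.01 over all genes. The 2 called genes, March8 and Mif, each had under 20 UMIs in Normoxia and reached the minimum through the Hypoxia library. The other class II chains H2-Oa, H2-Ob, H2-DMb2 and H2-Eb2 had 0 UMIs in Normoxia and 3, 8, 3 and 0 in Hypoxia. Of the peptide processing list 5 of 8 were measured and 0 were called, a count near the 6.1% and 4.49% over all genes. The cathepsins Ctsl and Ctsb, which cut the invariant chain and the antigen, had ratios of -0.69 (-1.003 to -0.37) and -0.69 (-1.15 to -0.22), with intervals below 0. The factors that sit on the X and Y boxes were low, with Rfx5 at 0 and 5 UMIs, Rfxap at -0.37 (-1.53 to 0.89) and Nfyb at 0.57 (-0.76 to 2.16), and the 1 called gene of that list was the ubiquitin ligase March8 at 1.09 (-0.46 to 3.09), whose interval held 0.

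Interferon gamma is the classical inducer of Ciita in endothelium. Its signalling list had 5 of 9 genes measured and 0 called in either direction. Over all genes 6.1% were at least 2-fold higher and 4.49% at least 2-fold lower, so this count was near the background. Ifng itself had 0 UMIs in endothelial cell-like cells of either library, and its level in the immune classes is not reported here. The part of interferon gamma in the class II difference was not tested. The receptor chain Ifngr1 had 319 CPM in Normoxia and 550.4 in Hypoxia (log2 ratio 0.79, 0.43 to 1.15) and its partner Ifngr2 had 150 and 79.5 (-0.91, -1.54 to -0.27). The target Irf1, at 193 and 154 CPM, had a ratio of -0.32 (-0.83 to 0.20), and its interval held 0. Co-stimulation stayed low, with Cd80 and Cd86 at 0 UMIs in endothelial cell-like cells of both libraries, Cd40 at 0.72 (-0.42 to 2.04) and the adhesion molecule Icam1 at -0.41 (-1.01 to 0.22). Mif, a ligand of Cd74, was the other called gene, from 51.2 to 168 CPM (1.72, 0.88 to 2.67). It too reached the UMI minimum through the Hypoxia library.

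In B cell-like cells 13 of the 44 were measured and 3 were called higher, beside 12.5% of all genes. These were H2-Oa (143 and 344 CPM, log2 ratio 1.27, 0.50 to 2.08), the transcription factor Irf8 (1.38, 0.58 to 2.23) and the ubiquitin ligase March1, which removes class II from the surface (1.15, -0.06 to 2.48). Macrophage or monocyte-like cells had 20 measured, with 4 called higher, beside 13.3% of all genes, and 2 lower, beside 6.64%. Among the higher were the protease Ctsd (217 and 2106 CPM, 3.28, 2.71 to 3.91), Cd44, a partner of Cd74 at the surface (2.11, 1.37 to 2.96), and Irf8 (1.98, 0.98 to 3.16), and lower were the activation marker Cd83 (-1.57, -2.57 to -0.60) and Icam1 (-1.24, -2.45 to -0.04). The protease Ctss had 1743 and 2429 CPM (0.48, 0.25 to 0.71). These macrophage or monocyte-like values pool clusters 8, 12 and 14, whose cell numbers differed between the libraries. Cluster 14 had cells in Hypoxia alone. The part of this cluster make-up in the calls was not tested.

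Across the 18 combinations of class and library with at least 5 cells, the transcripts most like the class II sum were Pld4 (Pearson r of log2 levels 0.79), Lat2 (0.76), H2-DMb2 (0.76), Ly86 (0.75) and Lyn (0.73), from 4057 genes compared. The points share libraries and differ in cell number, and the values are a description. Except for Lyn, a Src family kinase with 173 and 131 CPM in endothelial cell-like cells, these genes had 0 to 3 UMIs there in either library. The 7 genes themselves had r from 0.90 (Ciita) to 0.97 (Cd74) with their own sum, of which each is a part.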

How the data were processed

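Gene expression was measured in 1 Normoxia and 1 Hypoxia library made with the Chromium Single Cell 3' chemistry. The authors deposited UMI counts per gene and barcode, without normalization. The matrix headers name Cell Ranger 3.1.0, and the methods of the study state mapping with STAR to mm10. How reads shared by near-identical genes were treated is not given in the sources used here.

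Cells with 200 to 6000 genes and at most 5% mitochondrial UMIs and genes found in at least 3 cells were kept, as the study's methods state. Its results text gives a maximum of 4000 genes, which was tried as an alternative and moved the B cell-like and macrophage or monocyte-like ratios. This retained 293 of 373 Normoxia and 453 of 613 Hypoxia barcodes. The deposited totals were 1323874 and 1989423 UMIs. Clustering used scanpy 1.11.5 with 2000 variable genes, from which the 7 genes were left out, 15 principal components, 15 neighbours and Leiden resolution 1. A cluster was named from at least 3 markers found in 25% of its cells at 2 times the median level over clusters, unless another class tied, its leading 10 genes went against the name, or its depth was under a 3rd of its sample's with none of the markers among those 10. This gave 10 named and 4 unnamed clusters. Scrublet marked 1 and 2 cells, too few to count as a working doublet call, and doublets were not removed.

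UMIs were summed per class and library and scaled to CPM of the same cells. Intervals are exact (Poisson for levels, conditional binomial for ratios, Clopper-Pearson for shares) and cover counting error only. With 1 library per group no test was made. Called genes differed at least 2-fold among genes with at least 20 UMIs. All 7 genes and every listed pathway gene with at least 20 UMIs in a class could be named, and listed genes below that are given as UMIs. Likeness was Pearson's r of log2(CPM + 10) over classes with at least 5 cells, for genes with at least 100 UMIs. Scripts were tested on simulated data.

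The genes, lists and markers were chosen with earlier results of these data known, and the naming rule was set after clusters had been seen. Alternatives covered cell filters, clustering, cell naming, the denominator, thinning depth and the UMI minimum. The leave-outs of clusters 9, 10 and 14, of cells with immune or dendritic cell markers and the choice of general capillary cells were chosen after seeing the data. H2-Ea, H2-Ea-ps and Ifi30 were not analysed here, and some listed genes are not reported here.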

Additional observations from a re-analysis of the deposited data

Results flagged for a closer look

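The class II sum moved in opposite directions in different cell classes between the libraries. The log2 ratio of Hypoxia over Normoxia was 2.87 in endothelial cell-like cells and -0.91 in macrophage or monocyte-like cells, and the difference between these ratios was not tested. Within the latter class it was -0.80 in cluster 12, beside -0.08 in cluster 8, and this difference was not tested either. Cluster 12 had 9 Normoxia cells, of which 1 held 42.6% of their class II UMIs. The 160 Hypoxia barcodes that the filters left out held 11436 class II CPM, beside 6372 in the 80 left-out Normoxia barcodes, 9188 in the retained Normoxia and 12321 in the retained Hypoxia cells.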

How the results depend on the processing

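The endothelial cell-like ratio of the class II sum (log2 2.87) was above 0 under all 17 alternatives, from 2.58 to 3.37. It moved beyond its counting interval with 3000 variable genes (3.03), with 20 principal components (3.37, from 41 and 95 cells), with cluster 9 counted as endothelial (2.58), with clusters 2 and 3 alone (2.68) and with general capillary cells alone (2.58). The B cell-like ratio (0.53) became 0.62 with a maximum of 4000 genes, with Scrublet's doublets removed, with 3000 variable genes and with 20 components, 0.74 with classes from the markers of each cell, and 0.65 without immunoglobulin and haemoglobin genes in the total. The macrophage or monocyte-like ratio (-0.91) became -0.97 without a mitochondrial maximum, -1.12 with a maximum of 4000 genes, -1.01 with classes from the markers of each cell, -0.48 without cluster 14, -0.077 with cluster 8 alone and -1.29 without cells holding a dendritic cell marker. The T or NK cell-like ratio (0.63) became 4.31 with classes from the markers of each cell, where H2-Eb1 turned from -1.08 to 2.66. The cause of these shifts was not tested.

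Single genes kept their direction in 118 of 118 alternative values in endothelial, 110 of 112 in macrophage or monocyte-like, 88 of 91 in B cell-like and 42 of 46 in T or NK cell-like cells. No value could be had for Ciita in endothelial cell-like cells with 20 components, for H2-Aa in T or NK cell-like cells under 5 alternatives and for H2-Ab1 there without the cell with most class II UMIs. No paired analysis was possible because each group has 1 library. Differences between animals, libraries and conditions cannot be told apart here.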

Other observations

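Cluster 9, which stayed unnamed, had 2039 class II CPM in Normoxia and 462 in Hypoxia. In Normoxia 1 cell held 168 of the 184 UMIs, and the same cell had 1615 UMIs of Sftpc, the surfactant protein C gene of type 2 pneumocytes. Without the cell with most class II UMIs of each library the levels were 202 (115 to 328) and 290.5 (186 to 432).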
